A study of Mus musculus with 6 samples.

Results

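Glucocorticoid-induced genes were examined for Lsd1 occupancy in C2C12 cells, a mouse myoblast line, at day 1 of differentiation. The set was 10 genes widely known as targets of the glucocorticoid receptor: Fkbp5, Tsc22d3, Sgk1, Zbtb16, Dusp1, Mt1, Mt2, Angptl4, Errfi1 and Lcn2, out of 26180 curated RefSeq genes. A peak belonged to a gene when its centre lay between the outermost RefSeq ends of the gene on mm10 or within 20 kb of them, a stretch called the gene's window here. By this rule 35 of 43426 peaks were taken in the library from wild-type cells in myogenic medium, 28 of 18893 in that from wild-type cells in adipogenic medium, and 51 of 33533 in that from LSD1(OE) cells in adipogenic medium.

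Myogenic medium contained 2% horse serum, with no glucocorticoid named. Adipogenic medium contained 5 µM of the synthetic glucocorticoid dexamethasone together with 0.5 mM isobutylmethylxanthine, 125 nM indomethacin, 850 nM insulin, 1 nM T3, 1 µM rosiglitazone and 10% FCS, so that dexamethasone cannot be told apart from the other components. LSD1(OE) cells were a stable lentiviral line carrying Flag-tagged LSD1 downstream of a tetracycline-dependent promoter, and they received doxycycline at 2 µg/ml before and throughout differentiation, a treatment named only for these cells. The antibody was raised against the C-terminus of Lsd1 and not against the Flag tag, so endogenous and introduced protein cannot be told apart. Each condition was 1 ChIP library called against 1 input library, so there were no replicates, no test was made, and every difference given is between single libraries with counting error only. The ChIP libraries held 46155625 to 63915769 tags after duplicates were limited and the inputs 81567427 to 100711088. ChIP does not measure RNA, so neither the induction of these genes nor the identity of the cells was checked here.

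Glucocorticoids bind a receptor, Nr3c1, that is held in the cytoplasm by chaperones. The bound receptor enters the nucleus and binds palindromic response elements, often far from start sites, where it recruits coactivators. Lsd1 removes methyl groups from lysines of histone H3 within corepressor complexes and can also act as a partner of nuclear receptors. Dexamethasone and a rise of cAMP are the classical first signals of adipogenic differentiation in culture.

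The response elements are given first, because they are the sequence that the receptor binds. Their search in whole windows and whole peaks was added after seeing the data. The palindrome searched was AGNACANNNTGTNCT, which reads the same on both strands. The 9 windows, with those of Mt1 and Mt2 joined, spanned 846 kb and held 9 matches, or 1.06 per 100 kb, against 0.265 per 100 kb of all gene windows. The windows of Tsc22d3, Dusp1 and Errfi1 held none, which says only that these letters are not there. By library, 3 of the 9 lay in a called myogenic peak, 3 in an adipogenic one and 2 in an LSD1(OE) one. These were 3 different matches in all. In the windows of all genes, 2.76, 1.77 and 2.61% of matches lay in a myogenic, adipogenic or LSD1(OE) peak, where peaks covered 2.80, 1.45 and 2.22% of the bases. Member peaks were a larger part of the member windows, with 47.3, 45.8 and 65.8 kb of the 846 kb. The 3 matches inside peaks, at Sgk1, Fkbp5 and Mt2, are shown with their flanks from the mm10 genome, 5′ to 3′ on the strand of the gene, with the palindrome in capitals.
Sgk1, 182 bp before a start site: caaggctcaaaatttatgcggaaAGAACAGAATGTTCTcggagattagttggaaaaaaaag
Fkbp5, intron 5: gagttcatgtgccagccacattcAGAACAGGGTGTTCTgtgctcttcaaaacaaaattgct
Mt2, 1076 bp before the start site: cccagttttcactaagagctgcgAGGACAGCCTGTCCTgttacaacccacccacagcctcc
The Sgk1 match (chr10:21993701-21993715) lay in the myogenic and adipogenic promoter peaks and 126 bp outside the LSD1(OE) peak. The Fkbp5 match (chr17:28420321-28420335) and the Mt2 match (chr8:94171535-94171549) lay in a peak of each of the 3 libraries. None of these sites was at a summit, the position of most tags in a peak. At Mt2 the summit lay 1098, 1112 and 924 bp downstream of the palindrome in the myogenic, adipogenic and LSD1(OE) library, and at Fkbp5 257 bp upstream, 1197 bp downstream and 286 bp upstream.

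The other 6 matches lay outside every called peak.
Fkbp5, 43723 bp into the gene: AGAACAGCTTGTTCT
Angptl4, 6677 bp downstream of the start site: AGAACATTTTGTTCT
Lcn2, 544 bp upstream: AGAACAGGGTGTCCT
Lcn2, 4203 bp downstream: AGAACAGACTGTCCT
Zbtb16, 60110 bp into the gene: AGAACATTCTGTCCT
Zbtb16, 99427 bp into the gene: AGTACACTGTGTGCT
The Fkbp5 match at 43723 bp was 576 bp from a myogenic peak. The Lcn2 match upstream of the start site was 5772, 5636 and 5829 bp from the nearest myogenic, adipogenic and LSD1(OE) peak. Within 300 bp centred on a summit, none of the 35, 28 and 51 member peaks held the palindrome, which allows a share of up to 9.89, 12.1 and 7.00% by the 95% Wilson interval, and among all peaks of the series 0.101, 0.101 and 0.110% did. No depletion or enrichment at summits can be read from so few peaks. In the whole called stretch, 3 of 35, 3 of 28 and 2 of 51 member peaks held one, against 0.325, 0.450 and 0.409% of all peaks. They are the same 3 matches counted in each library, in windows that hold more palindromes per 100 kb than those of all genes.

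Most members had Lsd1 at the promoter in all 3 libraries. A promoter peak had its centre at most 2000 bp from a start site of the member that was also the start site nearest to it. In myogenic medium 8 of 10 members had one, where 40.5% of all genes did. In adipogenic medium 7 of 10 had one, against 23.2% of all genes. In the LSD1(OE) library 7 of 10 had one, against 32.3% of all genes. 6 members, Fkbp5, Sgk1, Dusp1, Mt1, Mt2 and Angptl4, had a promoter peak in each library, as did 19.0% of genes. Of the 8 members with a myogenic promoter peak 7 also had an adipogenic one, and among all genes with a myogenic promoter peak 53.1% had. Zbtb16 and Lcn2 had no promoter peak in any library. In the LSD1(OE) library the count became 8 with Errfi1 when any start site of the gene within the distance was accepted, and 6 without Angptl4 when the summit was used in place of the centre.

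Counted over the whole window, 9 of 10 members had a peak in the myogenic library, 9 in the adipogenic library and all 10 in the LSD1(OE) library, where 68.0, 48.0 and 60.4% of all genes did. The member without a window peak in either wild-type library was Zbtb16. Member windows held 4.14, 3.31 and 6.03 peaks per 100 kb in the myogenic, adipogenic and LSD1(OE) libraries, and the windows of all genes 2.43, 1.08 and 1.85. At an FDR of at most 0.1% the peaks in the member windows were 23, 15 and 24. The larger number in LSD1(OE) cells than in the myogenic library thus rested on weaker peaks, while the adipogenic number stayed the lowest. Genes that are silent in these cells are among all genes, and expression was not used to match them. Of the member peaks, 30 of 35, 23 of 28 and 41 of 51 had a start site of a member as their nearest start site.

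**Figure D1:**
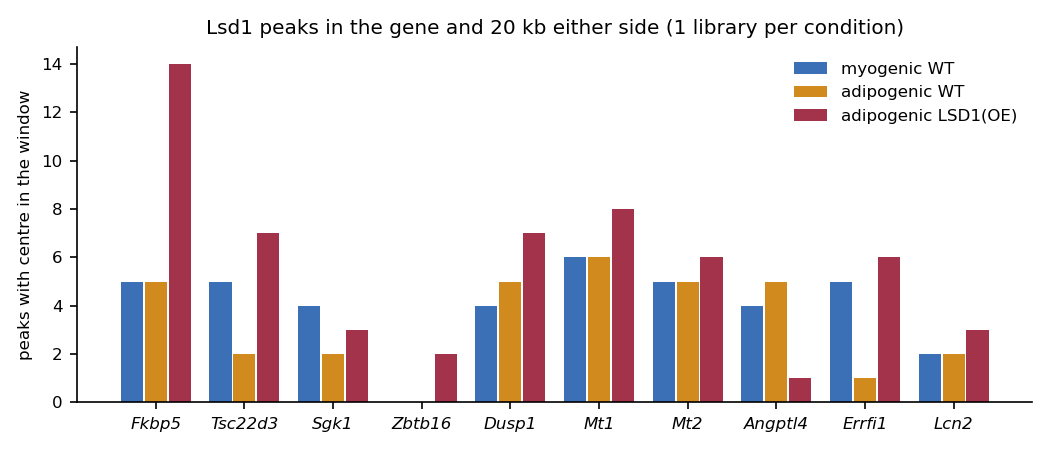
Number of Lsd1 peaks (y axis) with their centre in each gene or within 20 kb of it, by gene (x axis) and library (colours), with 1 library per condition and no error bars. Fkbp5 held 14 peaks in the LSD1(OE) library and 5 in each wild-type library, while Angptl4 held 4, 5 and 1 and Zbtb16 had peaks in the LSD1(OE) library only.

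Peaks overlapping by at least 1 bp were merged over the libraries, which gave 62 regions in the member windows. 15 of them, or 24.2%, held a peak in all 3 libraries, a share close to the 22.2% of the 45896 regions in all gene windows. 24 regions, or 38.7% (95% Wilson interval 27.6 to 51.2%), had a peak only in the LSD1(OE) library, against 19.3% of all regions. The window of Fkbp5 held more of these 24 than any other window. The interval treats regions as independent and does not allow for such clusters. 8 regions, or 12.9%, had one only in the myogenic library, against 35.3% of all. These are differences in what was called. Regions with a peak in all 3 libraries had a best score of 215 to 2165 with a median of 604. The score is 10 times −log10 of the caller's p-value. The 24 regions called only in the LSD1(OE) library had best scores of 52.0 to 237, median 67.1, close to the lowest score that the caller keeps, 50, and 7 of them reached 100. At an FDR of at most 0.1%, 7 regions were called only in LSD1(OE). The 5 called only in the adipogenic library, 8.06% against 3.43% of all regions, scored 53.1 to 83.6.

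**Figure D2:**
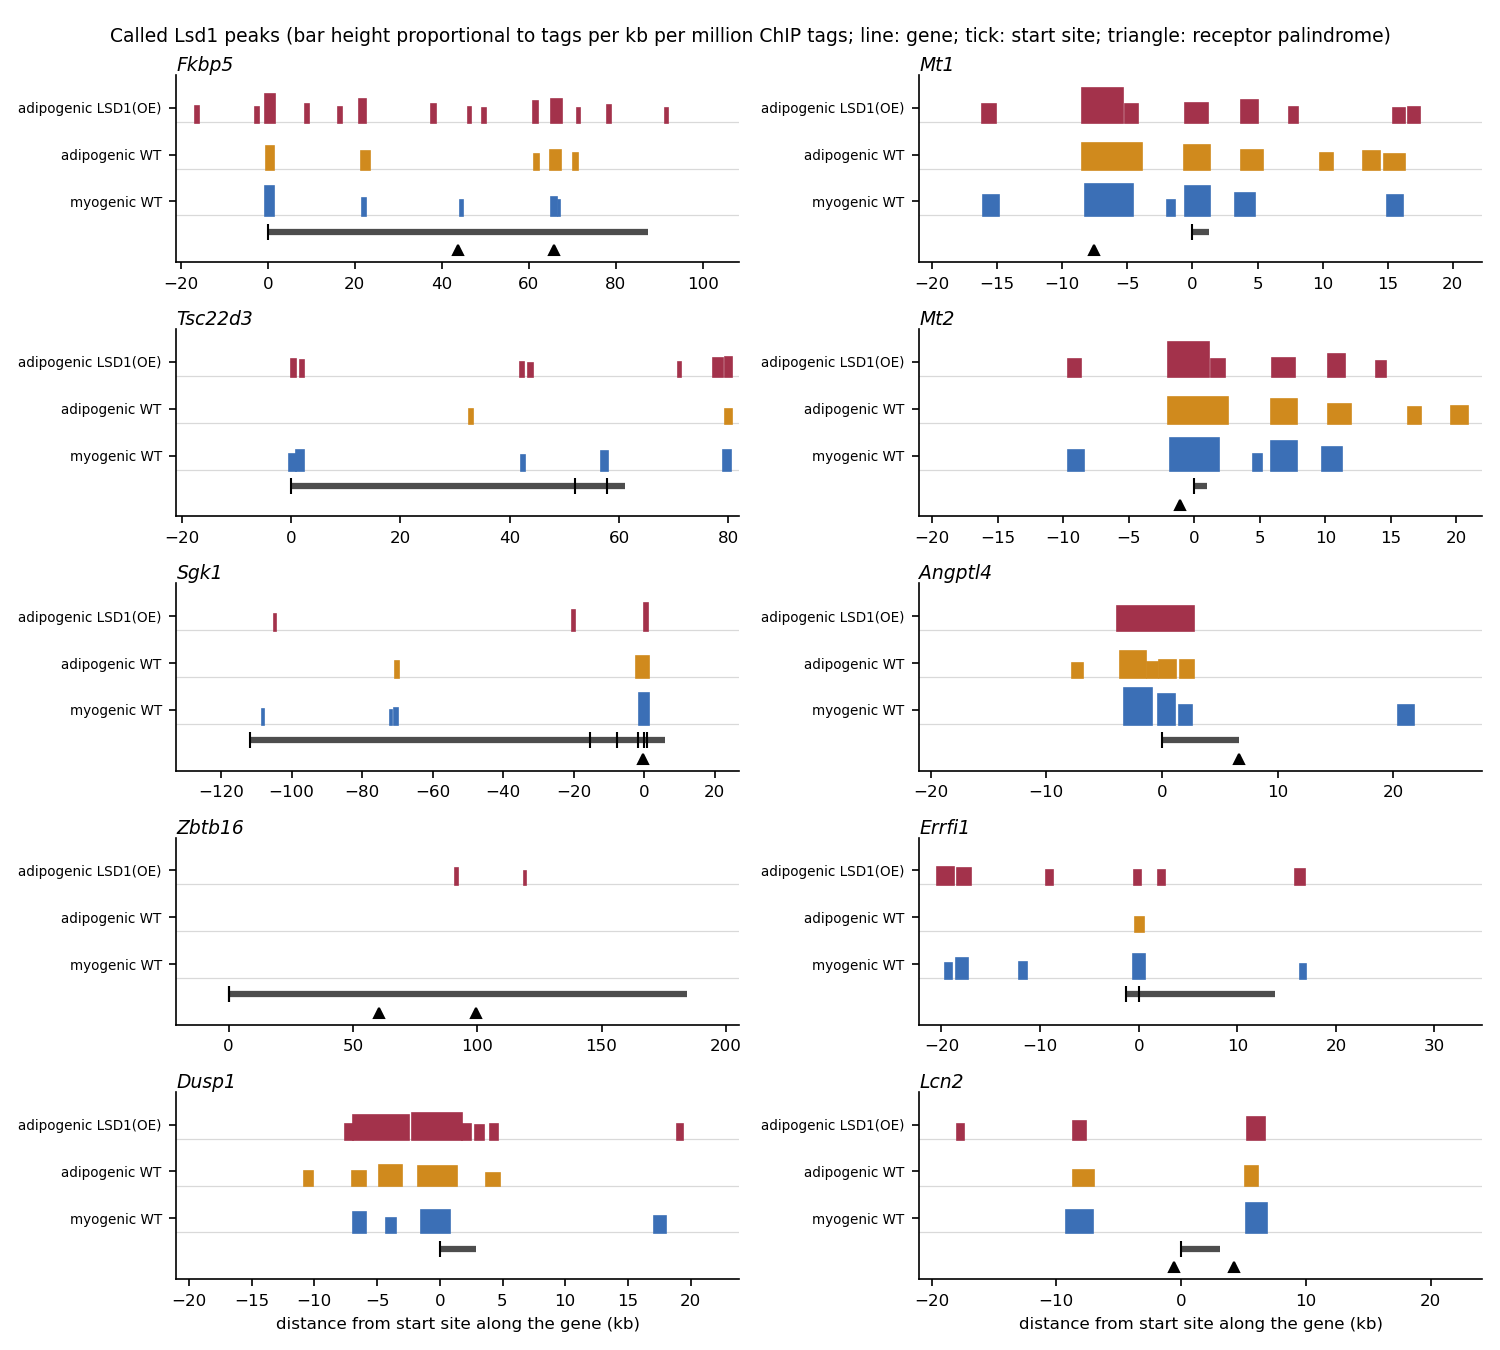
Called Lsd1 peaks of each gene in the 3 libraries (rows) against the distance from a start site along the gene in kb (x axis), the bar height being proportional to tags per kb and per 1000000 ChIP tags, at most 2.46. The grey line is the gene, ticks are RefSeq start sites and triangles are receptor palindromes. Peaks near the start sites recur in the same place in the 3 libraries at Fkbp5, Sgk1, Dusp1, Mt1, Mt2, Angptl4 and Errfi1. At Errfi1 the LSD1(OE) peak was assigned to the divergent gene 1700045H11Rik. Zbtb16 has 2 LSD1(OE) peaks alone.

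Fkbp5 encodes a co-chaperone that lowers the affinity of the receptor for its hormone, the feedback arm of the response. Its promoter peak held 208 tags over 2246 bp in myogenic medium, 193 tags over 1941 bp in adipogenic medium and 244 tags over 2323 bp in LSD1(OE) cells. Per kb and per 1000000 ChIP tags, called tag density from here on, these were 2.01 (95% Poisson interval 1.74 to 2.30), 1.56 (1.34 to 1.79) and 1.90 (1.67 to 2.16). The adipogenic density was the lowest of the 3, with a log2 ratio to myogenic of −0.37 (−0.66 to −0.08). The scores were 1028, 458 and 1084, above 93.6, 92.5 and 96.0% of the promoter peaks in the same library. Scores depend on the depth of the library, and no difference between libraries is read from them.

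The intron 5 region of Fkbp5 that holds the palindrome (chr17:28418610-28421188) carried 115 tags in 2 myogenic peaks, 204 tags in the adipogenic peak and 221 in the LSD1(OE) peak. Its log2 ratio of tag density was 0.10 (−0.24 to 0.44) for adipogenic over myogenic and 0.30 (0.02 to 0.58) for LSD1(OE) over adipogenic. A region in intron 1, 22276 bp into the gene, held 50, 167 and 123 tags in 885, 2141 and 1415 bp, and its density in the adipogenic and myogenic libraries differed by a log2 ratio of 0.00 (−0.47 to 0.48). The adipogenic call in intron 1 was the longest, and without division by called length that library had 2.61 tags per 1000000 ChIP tags there against 1.08 in the myogenic one, a log2 ratio of 1.27. At the promoter this ratio was −0.58 and in intron 5 it was 0.36. Whether promoter and introns differed in their ratios was not tested. 9 of the 14 LSD1(OE) peaks of Fkbp5 lay in regions without a wild-type peak, and their scores ran from 52.0 to 168.

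Tsc22d3 encodes GILZ, a leucine zipper protein that mediates anti-inflammatory effects of glucocorticoids, and Zbtb16 encodes the zinc finger repressor PLZF. At the start site of the long Tsc22d3 transcript, 140600522 on chromosome X, myogenic peaks held 92 and 63 tags (scores 269 and 119) and LSD1(OE) peaks held 51 and 69 tags (scores 109 and 152). No adipogenic peak was called there. The adipogenic library had 2 peaks in the window of Tsc22d3, one of 83 tags beyond its 3′ end and one of 50 tags in intron 2. A further myogenic peak of 76 tags lay 568 bp before a start site inside the gene. No library had a peak within 2000 bp of the start site at 140548571. Which start site of Tsc22d3 gives the GILZ transcript was not examined, so these peaks are not read as occupancy of its promoter. Tsc22d3 was thus the only one of the 8 members with a myogenic promoter peak that had none in the adipogenic library.

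Zbtb16 spans 184429 bp and had no peak in either wild-type library. The LSD1(OE) library held 39 tags (score 56.4) in intron 4 and 83 tags (score 164) in intron 2, at 118900 and 91237 bp from the start site. Its palindromes at 60110 and 99427 bp were 30471 and 7534 bp from the nearest LSD1(OE) peak.

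Sgk1, Dusp1 and Errfi1 act on kinase signalling. Sgk1 is a serum- and glucocorticoid-regulated kinase of ion transport and cell survival. The upstream sequence of its start site at 21993890 is shown because the palindrome lies in it (chr10:21993640-21993889, RefSeq promoter table, GRCm38.p6, plus strand, palindrome in capitals).
Sgk1 upstream: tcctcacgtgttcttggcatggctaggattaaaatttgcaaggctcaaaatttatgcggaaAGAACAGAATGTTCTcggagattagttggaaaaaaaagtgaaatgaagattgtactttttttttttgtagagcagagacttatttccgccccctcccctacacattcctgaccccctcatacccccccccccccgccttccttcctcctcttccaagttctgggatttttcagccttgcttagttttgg
Among 32851 RefSeq promoter sequences of the same table, which cover 300 bp each, 0.0639% held the palindrome. The promoter peak of Sgk1 had 279 tags over 2832 bp in the myogenic, 335 tags over 3614 bp in the adipogenic and 135 tags over 1282 bp in the LSD1(OE) library. The densities were 2.13 (1.89 to 2.40), 1.45 (1.30 to 1.61) and 1.91 (1.60 to 2.26). The log2 ratio was −0.56 (−0.79 to −0.32) for adipogenic over myogenic and 0.40 (0.10 to 0.69) for LSD1(OE) over adipogenic. The LSD1(OE) peak was the shortest and began downstream of the palindrome. Its higher density therefore went with fewer tags in all. Without division by called length the log2 ratio of LSD1(OE) over adipogenic turned to −1.10, with 2.45 and 5.24 tags per 1000000 ChIP tags, and that of adipogenic over myogenic was −0.21. A region far upstream of it in the first intron of a longer transcript (chr10:21922891-21924243) was the only one of the 62 regions called in both wild-type libraries and not in LSD1(OE), with 56 and 74 tags. Of the regions in all gene windows, 4.57% had this pattern.

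Dusp1 is a phosphatase that inactivates MAP kinases and is induced by glucocorticoids and by cAMP. Its upstream sequence holds the cAMP response element TGACGTCA, found in 1.79% of RefSeq promoters (chr17:26508473-26508722, minus strand, element in capitals).
Dusp1 upstream: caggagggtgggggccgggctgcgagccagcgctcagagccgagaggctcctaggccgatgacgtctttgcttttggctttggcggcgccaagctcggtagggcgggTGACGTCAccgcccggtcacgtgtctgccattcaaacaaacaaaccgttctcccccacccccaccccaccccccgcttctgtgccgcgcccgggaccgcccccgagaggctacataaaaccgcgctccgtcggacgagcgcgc
The promoter peak held 166, 273 and 393 tags over 2332, 3078 and 3974 bp in the myogenic, adipogenic and LSD1(OE) libraries. The densities were 1.54 (1.32 to 1.80), 1.39 (1.23 to 1.56) and 1.79 (1.62 to 1.98), and the myogenic and adipogenic intervals overlapped. The LSD1(OE) peak had the longest call, with a log2 ratio over adipogenic of 0.37 (0.14 to 0.60). A region further upstream (chr17:26510912-26516031) was called in each library. There 109 myogenic tags lay in 1876 bp, 249 adipogenic tags in 2977 bp and 439 LSD1(OE) tags in 5117 bp. The log2 ratio was 0.06 (−0.27 to 0.39) for adipogenic over myogenic and 0.25 (0.02 to 0.48) for LSD1(OE) over adipogenic. Dusp1 had longer called stretches in the adipogenic than in the myogenic library, and without division by length the log2 ratios of adipogenic over myogenic were 0.25 at the promoter and 0.72 further upstream.

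Errfi1 encodes an inhibitor of the EGF receptor. It also carried the cAMP response element in the sequence before its start site (chr4:150854820-150855069, plus strand, element in capitals), as did 2 of the 16 promoter sequences that the table gave for 8 members.
Errfi1 upstream: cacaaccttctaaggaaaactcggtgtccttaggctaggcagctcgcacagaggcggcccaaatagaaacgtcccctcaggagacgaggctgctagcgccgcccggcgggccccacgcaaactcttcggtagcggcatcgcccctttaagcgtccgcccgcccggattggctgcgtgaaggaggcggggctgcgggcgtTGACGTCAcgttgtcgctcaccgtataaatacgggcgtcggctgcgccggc
Its peak at the start site had 95 tags in the myogenic, 56 in the adipogenic and 43 in the LSD1(OE) library, with densities of 1.68 (1.36 to 2.06), 1.00 (0.756 to 1.30) and 1.03. The myogenic value was the highest, and the log2 ratio of adipogenic to myogenic was −0.75 (−1.26 to −0.26), the lowest of the 16 member regions with both. The adipogenic peak was weak, with a score of 61.5, above 10.1% of promoter peaks, and was lost at an FDR of at most 0.1%, at a score of at least 100 and without scaling of the tags. The LSD1(OE) peak lay 106 bp before the start site of Errfi1 and 15 bp before that of the divergent gene 1700045H11Rik, to which it was therefore assigned. Upstream regions at chr4:150834649-150836310 (36 myogenic and 116 LSD1(OE) tags) and chr4:150836591-150838091 (73 and 95 tags) had no adipogenic peak.

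Mt1 and Mt2 encode metallothioneins, small proteins that bind zinc and copper, and are induced by metals through the factor Mtf1 as well as by glucocorticoids. They lie next to each other on chromosome 8, and their windows share most of the peaks that follow. The metal response element cores TGCACNC and TGCGCNC, on either strand and counting overlapping matches, were found in the upstream sequence of both genes, in capitals (chr8:94178839-94179088 and chr8:94172368-94172617, plus strand).
Mt1 upstream: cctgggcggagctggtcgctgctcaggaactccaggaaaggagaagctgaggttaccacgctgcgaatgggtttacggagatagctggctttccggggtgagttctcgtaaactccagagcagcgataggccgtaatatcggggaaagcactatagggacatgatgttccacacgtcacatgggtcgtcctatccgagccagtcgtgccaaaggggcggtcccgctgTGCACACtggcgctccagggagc
Mt2 upstream: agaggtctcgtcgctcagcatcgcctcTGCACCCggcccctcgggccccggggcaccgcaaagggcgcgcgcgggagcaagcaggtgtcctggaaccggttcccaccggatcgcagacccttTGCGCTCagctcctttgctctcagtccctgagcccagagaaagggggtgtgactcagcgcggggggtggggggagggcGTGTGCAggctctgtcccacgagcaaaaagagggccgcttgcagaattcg
In the 300 bp promoter sequences, which run past the stretches shown, Mt1 held 3 cores and Mt2 held 4. At least 1 core was present in 25.7% of RefSeq promoters of that length, so a match alone separates few genes. How many promoters held several was not counted. The region at Mt2 (chr8:94170610-94175210) held 369 myogenic, 527 adipogenic and 468 LSD1(OE) tags. Its densities by strongest peak were 2.15 (1.93 to 2.38), 1.79 (1.64 to 1.95) and 2.31 (2.09 to 2.54), the adipogenic one being the lowest. That order did not hold on other scales. Over the whole region without division by length, the libraries had 7.99, 8.25 and 8.48 tags per 1000000 ChIP tags. The input background that would give the deposited scores was 78.0, 54.9 and 55.0 tags per kb, and the scaled tags were 2.41, 2.66 and 4.22 times that background, so the myogenic value was the lowest by this ratio. The Mt2 peaks scored above 91.6, 99.0 and 99.2% of the promoter peaks of their own library.

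At Mt1 the promoter peak held 178, 208 and 126 tags with densities of 2.00 (1.71 to 2.31), 1.64 (1.43 to 1.88) and 1.29 (1.07 to 1.54). Mt1 was the one shared region where the LSD1(OE) density was below the adipogenic with an interval that excluded 0, the log2 ratio being −0.35 (−0.68 to −0.02). The order of these libraries was the same without division by length, with 3.86, 3.25 and 2.28 tags per 1000000 ChIP tags. The input background solved from the scores also differed, at 63.0, 75.0 and 47.2 tags per kb, or 1.35, 1.72 and 0.877 times the density of the whole input, and its part in the result was not tested. The last value is below the density of the whole input, the least background the caller uses, so it cannot be exact, and no ratio of tags to background is given for Mt1. Such a value, under 0.98 times the whole input, arose at 3 of 114 member peaks.

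Downstream of Mt1, in the intergenic stretch after the gene, a region (chr8:94182381-94184541) was called in each library with 108, 144 and 107 tags. The 300 bp around its summit held 7 overlapping or separate metal response cores in each of the 3 libraries, more than any other member peak. They are shown for the myogenic summit (chr8:94183174-94183473, plus strand, cores in capitals on either strand).
Downstream of Mt1: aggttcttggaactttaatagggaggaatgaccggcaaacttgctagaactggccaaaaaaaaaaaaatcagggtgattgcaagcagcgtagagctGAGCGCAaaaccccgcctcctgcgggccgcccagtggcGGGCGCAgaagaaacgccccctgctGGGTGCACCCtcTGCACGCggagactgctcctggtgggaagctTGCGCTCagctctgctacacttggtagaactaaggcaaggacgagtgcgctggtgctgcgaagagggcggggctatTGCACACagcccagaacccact
Over the member peaks, 9 of 35 (25.7%), 11 of 28 (39.3%) and 13 of 51 (25.5%) held at least 1 core at the summit, and 22.4, 25.0 and 23.4% of all peaks did. A single arm of the receptor palindrome, AGNACA, was in 48.6, 64.3 and 58.8% of member peaks and in 55.6, 54.8 and 56.5% of all. The AP-1 motif TGANTCA, in 14.3, 14.3 and 17.6% of member peaks, and the E-box CAGCTG, in 25.7, 28.6 and 23.5%, were in similar shares of all peaks, 18.9, 20.3 and 18.1% and 25.8, 29.3 and 25.9%. The C/EBP letters TTGCNNAA were in 11.4, 14.3 and 9.80% of member peaks, against 10.4, 11.9 and 12.3% of all. For each of these letters and libraries the 95% Wilson interval of the member share held the share of all peaks. The member shares depended on the stretch searched. With the centre of the peak in place of the summit, the adipogenic share was 39.3% for the single arm and 21.4% for the metal response core, and with 100 bp either side of the summit it was 14.3% for the E-box and the LSD1(OE) share of the single arm was 45.1%.

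Angptl4 and Lcn2 encode secreted proteins, an inhibitor of lipoprotein lipase and a carrier of iron-binding siderophores. At Angptl4 the myogenic library had separate peaks at 2052 bp before the start site (270 tags, score 1671), in exon 1 (139 tags, score 701) and in intron 3 (70 tags, score 185). The adipogenic library had peaks at the same places with 257, 109 and 89 tags and a weak one of 64 tags between. In the LSD1(OE) library 1 peak of 6673 bp with 631 tags covered the whole stretch. Thus 3 of the 4 myogenic and 4 of the 5 adipogenic window peaks of Angptl4 lay within the stretch of the single LSD1(OE) peak, which held 479, 519 and 631 tags in the 3 libraries. Over the merged region (chr17:33778775-33785447) the log2 ratio was −0.55 (−0.73 to −0.37) for adipogenic over myogenic and 0.28 (0.11 to 0.45) for LSD1(OE) over adipogenic. The exon 1 peak alone had a density of 2.03 (1.71 to 2.40) in the myogenic and 1.21 (0.990 to 1.45) in the adipogenic library, with no overlap of the intervals.

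The window of Lcn2 held peaks in each library, but none was nearest to Lcn2. A region at the start site of 1110008P14Rik (chr2:32380841-32382647) carried 154, 91 and 123 tags, and one at the start site of Ptges2 (chr2:32394731-32396992) 161, 119 and 73 tags. Their log2 ratios of adipogenic over myogenic were −0.58 (−0.97 to −0.20) and −0.51 (−0.86 to −0.16). The closest peak centre to the Lcn2 start site was 5625 bp away.

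**Figure D3:**
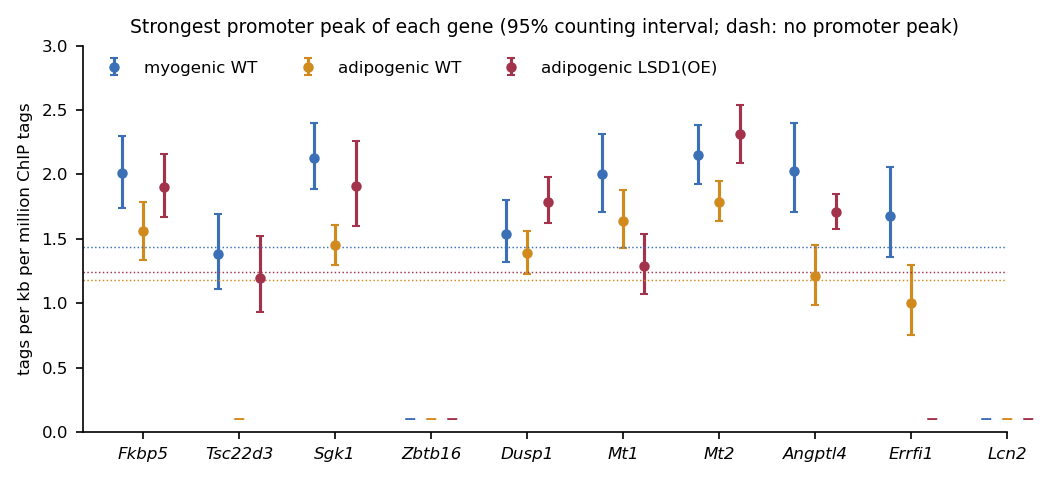
Tags per kb and per 1000000 ChIP tags (y axis) of the strongest promoter peak of each gene (x axis) in the 3 libraries (colours), with 95% Poisson intervals for counting error. Dotted lines are the medians of all promoter peaks of each library, 1.44, 1.18 and 1.24, and a dash marks no promoter peak. The adipogenic point is below the myogenic one at all 7 genes that have both, although at Mt2 the tags over the solved input background were 2.66 times in the adipogenic and 2.41 times in the myogenic library. Without division by called length, the adipogenic library had more tags per 1000000 at Dusp1, 4.27 against 3.60, and at Mt2, 8.25 against 7.99, and fewer at the others. Of all merged regions called in both libraries, 88.2% had the lower density in the adipogenic one.

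Across the promoters, the strongest peak of a member was above the median score of all promoter peaks at 8 of 8 members in the myogenic, 6 of 7 in the adipogenic and 6 of 7 in the LSD1(OE) library. The exceptions were Errfi1 in adipogenic medium and Tsc22d3 in LSD1(OE) cells. It was above the 90th percentile at 3, 4 and 4 members. This sets the strongest peak of a member against every promoter peak and not against the strongest of each gene, which favours members with several. In myogenic medium 12479 promoter peaks lay at 10599 genes. There the strongest promoter peak of Tsc22d3 was above 51.7% of promoter peaks and its weakest above 25.7%.

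Tag densities were compared at merged regions that had peaks in both libraries of a pair. For adipogenic over myogenic there were 16 member regions, of which 13 were lower in the adipogenic library and 7 had an interval below 0, none above. Their median log2 ratio was −0.32, the same as the −0.32 of all 14149 regions with both, of which 88.2% were lower. The lower density at members was therefore shared by the series as a whole. The intervals are set against 0, and the share of all regions with an interval off 0 was not counted for any pair. The interval of the Fkbp5 promoter, −0.66 to −0.08, excludes 0 but holds −0.32, while that of Angptl4, −0.73 to −0.37, holds neither. For LSD1(OE) over adipogenic 15 of 18 member regions were higher, 9 with an interval above 0, and the median was 0.24, against 0.13 over 13053 regions, of which 29.4% were lower. For LSD1(OE) over myogenic 14 of 21 were lower, with a median of −0.08, against −0.19 over all regions, of which 74.4% were lower. The adipogenic library is in both of the first 2 pairs, so the lower first ratio and the higher second one are not separate observations. When tags were compared without division by the called length, 9 of the 18 regions were lower in LSD1(OE) than in adipogenic, in place of 3, and the direction turned at 6 of 18 regions, at 3 of 16 for adipogenic over myogenic and at 4 of 21 for LSD1(OE) over myogenic.

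**Figure D4:**
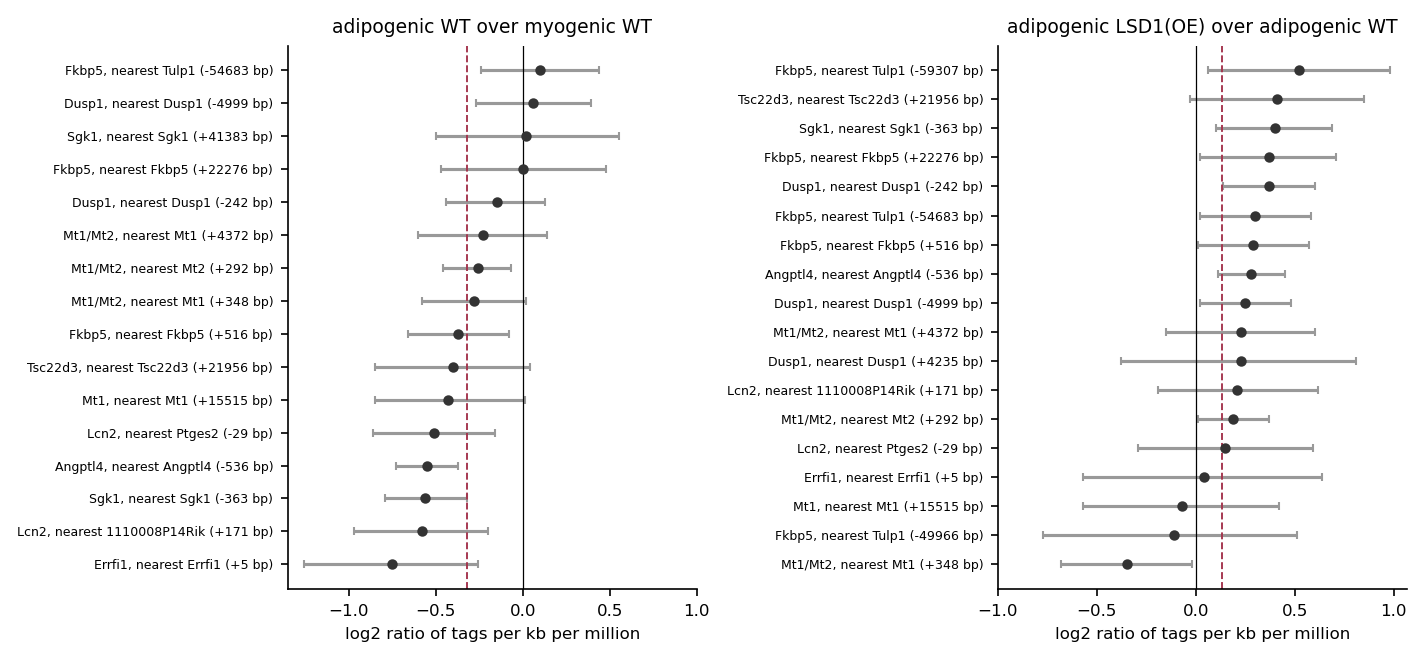
Log2 ratio of tag density (x axis) at each merged region of the member windows called in both libraries (y axis, with the gene of the window, the gene of the nearest start site and the distance to it), for adipogenic over myogenic wild-type cells (left) and LSD1(OE) over wild-type cells in adipogenic medium (right). Bars are 95% counting intervals, and the dashed line is the median of all regions, −0.32 and 0.13. The 3 regions above 0 on the left belong to Fkbp5, at intron 5, to Dusp1 and to Sgk1, and Mt1 is the lowest on the right.

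The receptor and its machinery were a list of 15 genes. Of these 13, 9 and 13 had a promoter peak in the myogenic, adipogenic and LSD1(OE) library, beside the 40.5, 23.2 and 32.3% of all genes. The receptor gene Nr3c1 had a promoter peak in each, with 161, 112 and 167 tags. The chaperone gene Hsp90ab1, with 225, 223 and 302 tags, and the coactivator gene Ncoa2 also had one in each library. The coactivator gene Ep300 had the highest score of the list in myogenic medium, 1400 with 270 tags. Nr3c2, the mineralocorticoid receptor, had none in any library.

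Of 21 other genes known to be induced by glucocorticoids, 14, 13 and 14 had a promoter peak, beside 40.5, 23.2 and 32.3% of all genes. Klf15, Trim63, Cdkn1c, Tat, Pck1, Igfbp1 and Cidec had none in any library. Tat, Pck1 and Igfbp1 are genes of liver metabolism. Strong promoter peaks were those of Ddit4 (335 tags), Cdkn1a (313), Foxo3 (276) and Cebpd (224) in myogenic medium, of Foxo1 (346), Cebpb (342), Klf9 (236) and Foxo3 (254) in adipogenic medium, and of Cebpb (371), Foxo1 (336), Per1 (363) and Klf9 (353) in LSD1(OE) cells. Cebpb is an early transcription factor of adipogenesis that cAMP and glucocorticoids induce. Its strongest promoter peak held 28 tags in the myogenic, 342 in the adipogenic and 371 in the LSD1(OE) library. The tag densities were 1.01, 1.32 and 1.64. These counts come from calls of unlike length. The myogenic call (chr2:167687898-167688497) lay within the far longer adipogenic (chr2:167685994-167690051) and LSD1(OE) (chr2:167686207-167690315) calls. Its score was 50.4, close to the lowest that the caller keeps, 50. Without replicates the difference between the libraries was not tested. Of 4 further genes of metal handling, Mtf1 and Mt4 had a promoter peak in each library, beside the same shares of all genes. Mtf1 had 109, 45 and 74 tags.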

How the data were processed

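The deposited peak lists were made by the authors from 50 bp single reads mapped to mm10 with Bowtie, and MACS 1.4.2 was run per condition, with the matching input as control and 1e-05 as the limit on p. For each peak the deposited lists give the count of ChIP tags after duplicates were limited, not normalized, a score of 10 times −log10 of the Poisson p-value, the fold enrichment and the FDR in percent. ChIP tags had been scaled up to the depth of the input before scoring. The ChIP libraries held 46155625, 63915769 and 55193310 tags and the inputs 87508211, 81567427 and 100711088. Every deposited peak had an FDR under 1%. The deposited fold enrichment does not follow the same scale in the 3 libraries and was not compared between them, and the deposited BED files hold the same peaks and were not used.

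The members and the lists of genes were chosen with earlier results of these data known. All members were named with their peaks, and of the other lists up to 4 genes with a promoter peak per library, by score, with Nr3c1. 1 result that this rule would name is not reported here. Tag densities are tags per kb of called length and per 1000000 ChIP tags, with exact Poisson intervals; shares have Wilson intervals. Both cover counting error only, since reads are not independent molecules. The local background was solved from tags, length and score and is an estimate. Motifs were searched in the GRCm38.p6 genome and RefSeq promoter table. Alternatives were other windows, positions, thresholds, equal peak numbers, unscaled tags, other overlaps and other motif widths; the search of whole peaks and whole windows was added after seeing the data. The steps were tested on simulated data. RNA was not analysed here. Python 3.11.15, NumPy 2.4.6, pandas 2.3.3, SciPy 1.17.1 and Matplotlib were used. The sources differ on days of adipogenic induction, 2 in the methods and 3 in the labels, both past the day 1 examined.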

Additional observations from a re-analysis of the deposited data

How the results depend on the processing

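No paired analysis was possible because each condition had 1 ChIP library. The number of members with a window peak or a promoter peak stayed within 1.5 times under every alternative run. The number of peaks in the member windows, 35, 28 and 51 in the myogenic, adipogenic and LSD1(OE) library, became 74, 57 and 90 with 50 kb either side, 18, 13 and 24 in the gene spans alone, and 23, 15 and 24 at an FDR of at most 0.1%. With a score of at least 100 it was 16 in the adipogenic and 28 in the LSD1(OE) library. With equal numbers of the strongest peaks it was 21 in the myogenic and 28 in the LSD1(OE) library, and with tags not scaled up 28 in the latter.

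Of the 62 merged regions, 27 were left at an FDR of at most 0.1%, 32 at a score of at least 100, 38 with equal numbers and 39 without scaling. Regions called only in LSD1(OE), 24 as reported, fell to 7, 10, 9 and 9 in that order. Regions with a myogenic and no adipogenic peak, 14, became 7, 8, 5 and 8. Those with an adipogenic and no myogenic peak, 8, became 0 at the stricter FDR and 1 at a score of 100. With equal numbers they were 10, more than the 5 with a myogenic and no adipogenic peak, and without scaling they stayed at 8. Before these alternatives, 12.9% of member regions were myogenic only and 9.68% myogenic and LSD1(OE). In all gene windows those shares were 35.3 and 12.8%. Adipogenic only were 8.06% and adipogenic and LSD1(OE) 4.84%, against 3.43 and 2.32% in all gene windows. Shares of all regions under the alternatives are not given. Fewer peaks entered these alternatives by construction, except that equal numbers kept all adipogenic peaks. Without division by length, 9 shared regions were lower in LSD1(OE) than in adipogenic, as against 3. Peaks of fewer than 27, 35 and 30 tags are not in the lists, so weaker occupancy was not detectable at this depth.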
